A study of Mus musculus with 12 samples.

Results

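The amino acid, sugar and nucleoside transporters described here are the measured members of 12 solute carrier (Slc) families, namely Slc1, Slc2, Slc3, Slc5, Slc6, Slc7, Slc16, Slc28, Slc29, Slc36, Slc38 and Slc43. They were chosen by symbol, and where several probesets carried one symbol, the brightest on average stood for the gene. The rule found 103 genes of the 19938 measured, with 7 in Slc1, 12 in Slc2, 2 in Slc3, 11 in Slc5, 18 in Slc6, 15 in Slc7, 13 in Slc16, 3 in Slc28, 4 in Slc29, 4 in Slc36, 11 in Slc38 and 3 in Slc43.

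Global gene expression was measured on 12 Affymetrix arrays of sorted mouse mammary cells, 3 for each of 4 groups. The Wnt4-deleted cells came from MMTV::Cre+.Wnt4fl/fl.mT/mG females and the WT cells from MMTV::Cre+.Wnt4wt/wt.mT/mG females, all 10 to 14 weeks old. Both genotypes thus carried the Cre transgene, driven by the MMTV promoter, which is active in mammary epithelium but also in some other tissues, and the mT/mG reporter, which turns green once Cre has acted. After lineage depletion, green cells were divided by their surface CD24 into a CD24 high fraction, labelled luminal, and a CD24 low fraction, labelled myoepithelial. The labels name mammary glands as the source and the sorting notes name mammary grafts, and they do not say how many animals stand behind a sample. Arrays are called by the number in their title, which is 4, 12 and 16 for Wnt4-deleted CD24 high, 3, 11 and 15 for Wnt4-deleted CD24 low, 2, 10 and 14 for WT CD24 high and 1, 9 and 13 for WT CD24 low. The numbers form runs 1 to 4, 9 to 12 and 13 to 16, each with 1 array of every group. The question was how the transporters differed between the fractions of each genotype, and between the genotypes within each fraction.

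Solute carriers are membrane proteins that move small hydrophilic molecules across lipid bilayers, either down their gradient or coupled to sodium, protons or a counter-transported solute. Luminal cells of the mammary gland line the duct and make milk from amino acids, glucose and other nutrients taken up from the blood, while myoepithelial cells surround them and contract. Many amino acid carriers are exchangers that bring in one amino acid for another, so that their action depends on the carriers that fill the cell with the exchanged amino acid.

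Values are RMA values on the log2 scale, so that a difference of 1 is a doubling of the signal, and reached from 1.62 to about 14 over all probesets. The fractions carried their markers. The mean of 12 general luminal markers was 10.6 to 10.9 on the 6 CD24 high arrays and 8.15 to 8.85 on the 6 CD24 low arrays, and the mean of 12 myoepithelial markers was 6.24 to 7.22 on CD24 high and 10.9 to 11.3 on CD24 low arrays. Krt8, a luminal keratin, was nevertheless well measured in CD24 low cells (10.6 to 11.6). Wnt4 lay at 6.11, 6.46 and 6.78 in Wnt4-deleted CD24 high cells, against 7.42, 7.92 and 7.62 in WT CD24 high cells (log2 change -1.2, SE 0.19), a difference that did not pass adjustment over all genes (limma, adjusted p = 0.416). Other cells were present in the CD24 low fraction. The mean of 12 endothelial markers was 6.59, 9.26 and 9.02 on arrays 3, 11 and 15 and 6.73, 8.15 and 8.93 on arrays 1, 9 and 13, but 5.27 to 6.48 on CD24 high arrays, and skeletal muscle markers were high on array 3 (7.63) and array 1 (6.73) and between 4.94 and 5.41 on the others. Arrays 11 and 9 stood apart by their fibroblast markers (8.51 and 8.95, against 6.19 to 7.02 on the other CD24 low arrays) and pericyte markers (7.31 and 6.94, against 5.61 to 6.2). As these are bulk samples, fewer cells of a type and less RNA per cell cannot be told apart.

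Between the fractions, 27 of the 103 transporters (26.2%) passed the test in Wnt4-deleted cells, where 16.4% of all genes were called. Of these, 12 were higher in CD24 high cells (8.23% of all genes were called higher) and 15 were lower (8.22% of all genes). In WT cells 31 transporters (30.1%) passed, against 16.1% of all genes, with 13 higher (7.93% of all genes) and 18 lower (8.21% of all genes). A gene is called when its adjusted p from limma, corrected over all genes by Benjamini-Hochberg, is under 0.05. At an unadjusted p under 0.05 the counts were 42 in Wnt4-deleted cells, where the share over all genes was 27.9%, and 44 in WT cells, where it was 26.4%. The 3 CD24 high arrays lay wholly above or below the 3 CD24 low arrays for 38 members in Wnt4-deleted cells (29.3% of all genes) and 49 in WT cells (32.8% of all genes). Over the 103 genes the median log2 change was -0.09 in Wnt4-deleted and -0.06 in WT cells, beside 0.01 and 0.02 over all genes, and the median size of the change regardless of sign was 0.29 and 0.30, beside 0.21 and 0.20.

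**Figure D1:**
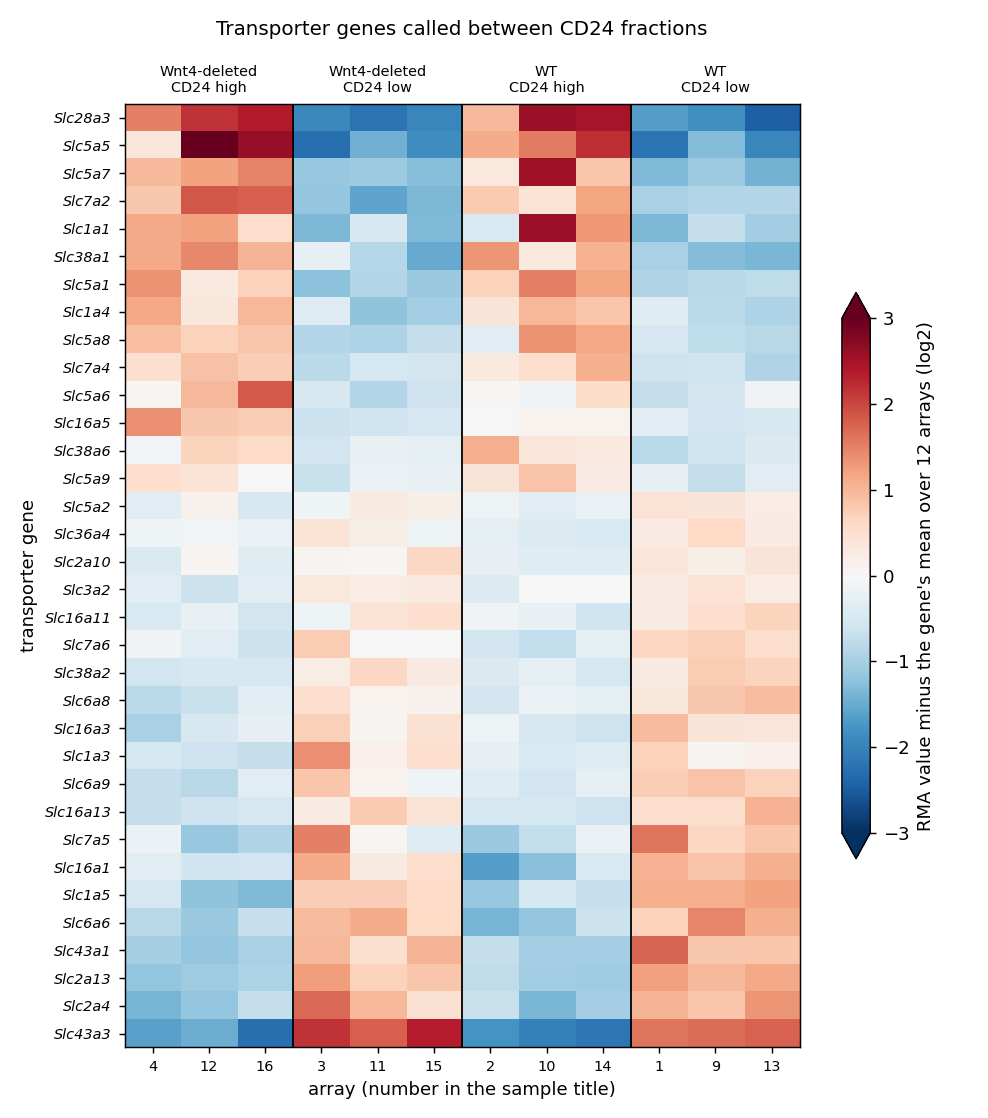
Each row is 1 of the 34 transporters called between the CD24 fractions in either genotype, and each column is 1 of the 12 arrays. The colour gives the RMA value minus the gene's mean over all arrays (log2, saturated beyond 3 in either direction), and the blocks of blue and red change sides between the CD24 high and the CD24 low arrays of both genotypes.

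The comparison of fractions was made in each genotype on separate arrays. A total of 24 transporters were called in both, which is 88.9% of those called in Wnt4-deleted cells and 77.4% of those called in WT cells, and all 24 went the same way, 11 higher and 13 lower in CD24 high cells. The same overlap was not counted over all genes, so it cannot be read as particular to the transporters. Slc1a3, Slc3a2 and Slc5a6 were called in Wnt4-deleted cells alone. Slc7a5, Slc7a6, Slc36a4, Slc2a10, Slc5a2, Slc5a9 and Slc38a6 were called in WT cells alone. These lists moved with the fit, since Slc1a3 was called in WT cells in 8 of 24 refits, among them that with the runs of title numbers as a block (adjusted p = 0.0381), and in Wnt4-deleted cells Slc38a6 was called in 6, Slc5a9 in 5 and Slc7a5 and Slc7a6 in 3 of 25 each. Each of these 10 had the same sign in the other genotype, and for none did the difference between the genotypes pass the test (limma, adjusted p = 1.0 each). The changes correlated across the 103 genes (Pearson's r = 0.96), as they did across all 19938 genes (r = 0.938), a description in which genes are not independent. All 27 and all 31 called transporters had the same sign in each of the 3 runs of title numbers. The runs hold the same arrays that gave the calls, so this is no separate support.

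**Figure D2:**
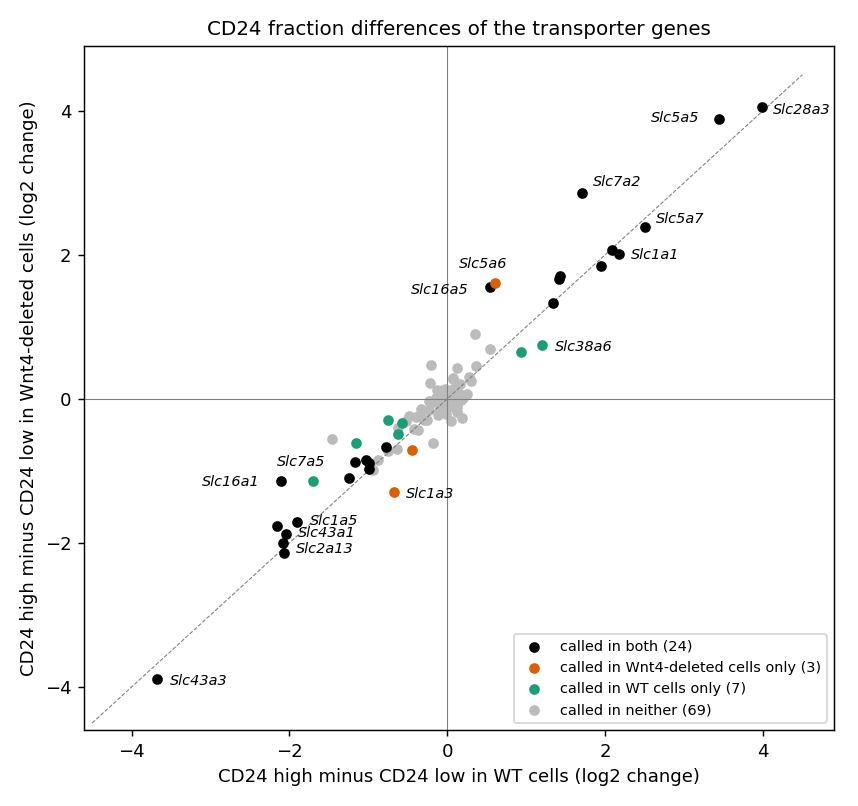
Each point is 1 of 103 transporters, with its log2 change between CD24 high and CD24 low cells in Wnt4-deleted cells on the vertical axis and in WT cells on the horizontal axis. The points called in both genotypes lie near the dashed line of equal change, with Slc28a3 and Slc5a5 at the upper end and Slc43a3 at the lower end, while Slc7a2, Slc16a5 and Slc5a6 lie above it.

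The carriers of nucleosides and nucleobases gave both ends of this range. Slc28a3 encodes CNT3, a concentrative carrier that takes up purine and pyrimidine nucleosides with sodium. It had values of 8.22, 8.87 and 9.08 in Wnt4-deleted CD24 high cells, against 4.77, 4.5 and 4.75 in Wnt4-deleted CD24 low cells. In WT cells it had 7.68, 9.29 and 9.18 in CD24 high, against 5.06, 4.86 and 4.27 in CD24 low. Every CD24 high array thus lay far above every CD24 low array, and the fold was 16.6 in Wnt4-deleted (log2 change 4.05, SE 0.39, limma adjusted p = 3.65e-05) and 15.9 in WT cells (3.99, SE 0.39, adjusted p = 4.3e-05). It was the highest change among the 103 transporters in both genotypes. The CD24 low means lay at percentiles 27.2 and 28 of all genes, and without detection calls it is not known whether that signal was above background, so that these folds hold for the signal alone. The 150 bases before its start, in RefSeq's annotation of GRCm38.p6 (chr13:58610878-58611027, minus strand), are shown because this gene led the CD24 high side, and hold neither of the motifs searched below.
Slc28a3: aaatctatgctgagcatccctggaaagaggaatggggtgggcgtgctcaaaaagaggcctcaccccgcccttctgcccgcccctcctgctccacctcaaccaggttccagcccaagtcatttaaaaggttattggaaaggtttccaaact

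The other concentrative carriers, Slc28a1 (CNT1) and Slc28a2 (CNT2), were called in neither genotype, with group means between 3.21 and 5.53. Of the equilibrative carriers of the Slc29 family, which let nucleosides move down their gradient, 0 of 4 were called by limma. Slc29a3, the lysosomal carrier ENT3, came closest, with 8.06, 7.93 and 8.55 in Wnt4-deleted CD24 high cells, against 7.65, 7.17 and 7.03 in Wnt4-deleted CD24 low cells (log2 change 0.90, SE 0.35, adjusted p = 0.112). In WT cells its groups overlapped (log2 change 0.35). Slc29a1, the widespread surface carrier ENT1, had log2 changes of -0.14 and -0.34 and was not called.

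Slc43a3 stood at the other end. The human protein, ENBT1, is an equilibrative carrier of purine nucleobases. Slc43a3 was measured at 5.99, 6.13 and 5.37 in Wnt4-deleted CD24 high cells, against 9.78, 9.41 and 9.99 in Wnt4-deleted CD24 low cells, and at 5.84, 5.60 and 5.47 in WT CD24 high cells, against 9.23, 9.30 and 9.40 in WT CD24 low cells. It was 14.9-fold lower in CD24 high cells of Wnt4-deleted mice (log2 change -3.89, SE 0.21, adjusted p = 5.24e-07) and 12.7-fold lower in those of WT mice (-3.67, SE 0.21, adjusted p = 8.39e-07). Among the CD24 low arrays, those with the lowest endothelial markers, arrays 3 and 1 (6.59 and 6.73), gave 9.78 and 9.23, the second highest and the lowest value. With the endothelial level as a covariate the changes were -3.84 in Wnt4-deleted and -3.62 in WT cells, both called.

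The Slc5 family, which couples uptake to sodium, was the one with most members higher in CD24 high cells. Of 11 members, 5 were higher and 0 lower in Wnt4-deleted cells (limma, 1 member was lower at an unadjusted p under 0.05), and 5 were higher and 1 lower in WT cells. These are shares of 45.5% and 54.5%, beside 16.4% and 16.1% of all genes called, of which 8.23% and 7.93% of all genes were higher. Slc5a5 encodes the sodium-iodide symporter, which concentrates iodide in thyroid and in lactating breast. It was at 8.83, 11.7 and 11.1 in Wnt4-deleted CD24 high cells, against 6.24, 7.06 and 6.63 in Wnt4-deleted CD24 low cells. In WT cells it was at 9.60, 10.0 and 10.7 in CD24 high, against 6.30, 7.20 and 6.53 in CD24 low. No CD24 high array overlapped the CD24 low arrays, but array 4 was well under the other Wnt4-deleted CD24 high arrays, and the error was the largest among the 103 genes (log2 change 3.89 in Wnt4-deleted and 3.44 in WT cells, SE 0.60 each, adjusted p = 0.00106 and 0.00238).

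Slc5a7, the high-affinity choline carrier known from cholinergic nerve endings, was higher in CD24 high cells by 2.39 in Wnt4-deleted and 2.51 in WT cells (log2, SE 0.43 each, adjusted p = 0.00275 and 0.00204). Its CD24 low values were all between 4.38 and 4.72, and its CD24 high values were 6.76, 7.01 and 7.28 in Wnt4-deleted and 6.12, 8.35 and 6.64 in WT cells. Slc5a1, the sodium-glucose cotransporter SGLT1, was higher by 1.85 and 1.95 (SE 0.26 each, adjusted p = 4.91e-04 and 3.45e-04). Slc5a8, the sodium-coupled carrier of lactate, pyruvate and short-chain fatty acids known as SMCT1, was higher by 1.66 and 1.42 (SE 0.34 each, adjusted p = 0.00649 and 0.0156), although its WT call was lost when any 1 of arrays 9, 10, 13 and 14 was left out (adjusted p = 0.0521 to 0.0673) and in a fit on the compared groups alone (0.0639). With the endothelial level as a covariate the Slc5a8 changes were 1.69 in Wnt4-deleted and 1.44 in WT cells, neither called (adjusted p = 0.0698 and 0.0808).

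Slc5a6, the carrier of biotin, pantothenate and lipoate, was called in Wnt4-deleted cells alone. It had 7.90, 8.83 and 9.69 in Wnt4-deleted CD24 high cells, against 7.38, 6.98 and 7.22 in Wnt4-deleted CD24 low cells, where the fractions did not overlap (log2 change 1.61, SE 0.37, adjusted p = 0.0112). This call was lost with the endothelial or the fibroblast level as a covariate (1.69 and 1.51, adjusted p = 0.0891 and 0.0532). It was also lost in a fit on the compared groups alone (1.61, adjusted p = 0.0594). In WT cells it had 7.89, 7.74 and 8.40 in CD24 high, against 7.15, 7.30 and 7.75 in CD24 low, where array 13 reached the lowest CD24 high value (log2 change 0.61, SE 0.37, adjusted p = 0.349). The difference between these changes was -1.0, with a 95% interval of -2.15 to 0.14. Slc5a9 (SGLT4) was called higher in WT cells (0.93, SE 0.21, adjusted p = 0.0105) and Slc5a2 (SGLT2) lower (-0.58, SE 0.17, adjusted p = 0.0362), and the Slc5a2 call was lost without any 1 of the 6 WT arrays. Of the 4 uncalled members, Slc5a3, a sodium-myo-inositol cotransporter, had the highest signal, with log2 changes of -0.70 and -0.63, and Slc5a10, Slc5a11 and Slc5a12 changed by less than 0.2 in size.

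The facilitative sugar carriers of the Slc2 family gave no member higher in CD24 high cells. Of 12, 2 were lower in Wnt4-deleted and 3 in WT cells. These are shares of 16.7% and 25.0%, beside 16.4% and 16.1% of all genes. Slc2a13, a proton-coupled carrier of myo-inositol, was at 5.07, 5.19 and 5.30 in Wnt4-deleted CD24 high cells, against 7.51, 6.94 and 7.09 in Wnt4-deleted CD24 low cells, and at 5.48, 5.22 and 5.18 in WT CD24 high cells, against 7.49, 7.23 and 7.38 in WT CD24 low cells. The spread within groups was small beside the difference (log2 change -1.99 and -2.08, SE 0.16 each, adjusted p = 8.75e-06 and 6.31e-06). Slc2a4, the insulin-responsive carrier GLUT4 of muscle and fat, was at 5.40, 5.62 and 6.07 in Wnt4-deleted CD24 high cells, against 8.47, 7.79 and 7.25 in Wnt4-deleted CD24 low cells, and at 6.13, 5.40 and 5.77 in WT CD24 high cells, against 7.80, 7.61 and 8.11 in WT CD24 low cells (-2.14 and -2.07, SE 0.30 each, adjusted p = 5.32e-04 and 6.78e-04). Array 3, the highest of these, was also highest in skeletal muscle markers (7.63). Without arrays 1 and 3 the changes were -1.83 in Wnt4-deleted and -2.09 in WT cells, both called. The 7 measured adipocyte markers all had negative changes in both genotypes, with medians of -0.36 in Wnt4-deleted and -0.09 in WT cells. None of these markers was called, and the part of fat cells in the Slc2a4 difference was not tested.

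Slc2a10 (GLUT10) was called lower in WT cells alone (-0.63, SE 0.18, adjusted p = 0.0351), and lost that call without any 1 of the 6 WT arrays (adjusted p = 0.0548 to 0.117). The remaining 9 Slc2 genes were not called. Among them was Slc2a1, the widespread glucose carrier GLUT1. It had 10.3, 10.1 and 10.4 in Wnt4-deleted CD24 high cells, against 10.98, 10.4 and 10.2 in Wnt4-deleted CD24 low cells, and the groups overlapped in Wnt4-deleted cells (log2 change -0.24, adjusted p = 0.535; -0.49, adjusted p = 0.167 in WT cells, where the arrays did not overlap). Slc2a3, the high-affinity neuronal glucose carrier GLUT3, had 5.30, 4.84 and 5.33 in WT CD24 high cells, against 6.77, 6.33 and 6.74 in WT CD24 low cells, and just missed the threshold (-1.46, SE 0.46, adjusted p = 0.0554). In Wnt4-deleted CD24 high cells array 16 alone was high for Slc2a3, at 6.95 beside 4.73 and 4.98.

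**Figure D3:**
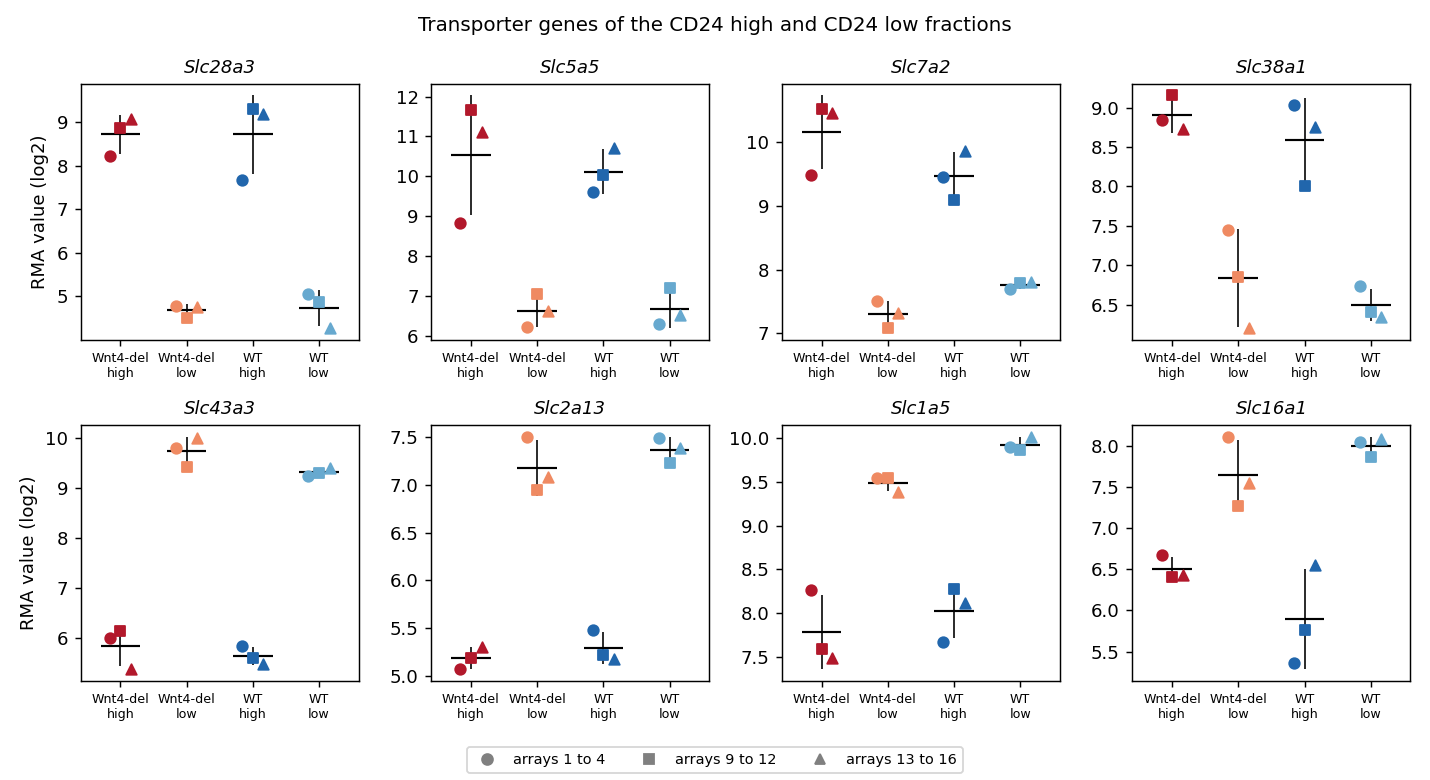
Values of 8 transporters on each array (RMA, log2), with Wnt4-deleted CD24 high and low and then WT CD24 high and low from left to right. Points are arrays, shaped by run of title numbers, horizontal bars are means and vertical lines are 1 SD (n = 3). In the upper row the CD24 high points lie above all CD24 low points of their genotype, and in the lower row below them.

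Of the 15 Slc7 carriers, 2 were higher and 0 lower in Wnt4-deleted cells by limma (13.3%, beside 16.4% of all genes), and 2 were higher and 2 lower in WT cells (26.7%, beside 16.1%). The cationic amino acid carrier Slc7a2 (CAT2), which takes up arginine, lysine and ornithine, was at 9.50, 10.5 and 10.5 in Wnt4-deleted CD24 high cells, against 7.51, 7.09 and 7.33 in Wnt4-deleted CD24 low cells. In WT cells it was at 9.46, 9.09 and 9.86 in CD24 high, against 7.69, 7.80 and 7.80 in CD24 low. It was 7.24-fold higher in CD24 high cells of Wnt4-deleted mice (log2 change 2.86, SE 0.27, adjusted p = 2.87e-05) and 3.26-fold higher in those of WT mice (1.71, SE 0.27, adjusted p = 0.00115). Slc7a4, a relative with no settled substrate, was higher by 1.33 and 1.34 (SE 0.20 each, adjusted p = 7.6e-04 and 7.14e-04). Slc7a1 (CAT1), the widespread arginine carrier, was not called (-0.41 and -0.62, SE 0.35 each).

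Slc7a5 and Slc7a6, light chains of 2-subunit exchangers, were called lower in CD24 high cells of WT mice and in neither direction in Wnt4-deleted cells. Slc7a5 (LAT1), which brings in leucine and other branched and aromatic amino acids, was at 9.25, 8.29 and 8.52 in Wnt4-deleted CD24 high cells, against 10.9, 9.47 and 9.06 in Wnt4-deleted CD24 low cells, and at 8.31, 8.69 and 9.21 in WT CD24 high cells, against 11.03, 10.0 and 10.3 in WT CD24 low cells. The fractions overlapped in Wnt4-deleted cells (-1.13, SE 0.46, adjusted p = 0.128) and were apart in WT cells (-1.70, SE 0.46, adjusted p = 0.0267). The highest values came from arrays 3 and 1, which also carried skeletal muscle transcripts, and the part of muscle in them was not tested. On arrays 9 to 16 alone the Wnt4-deleted change was -0.86 and called (adjusted p = 0.0364), and the WT call was kept. Without array 1 the WT change was -1.40 and not called (adjusted p = 0.101), as it was without array 2, 10 or 13 (adjusted p = 0.0899, 0.0774 and 0.0594). Slc7a6 (y+LAT2), which exchanges cationic for neutral amino acids, was lower in WT cells (-1.15, SE 0.22, adjusted p = 0.00379) and had -0.61 in Wnt4-deleted cells (adjusted p = 0.0865). Slc7a8 (LAT2), another exchanger of neutral amino acids, was called in neither genotype (-0.43 and -0.37, adjusted p = 0.189 and 0.28).

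Slc3a2, the heavy subunit 4F2hc (CD98) that carries LAT1 and the y+LAT exchangers to the surface, was high in every group. It had 10.3, 9.97 and 10.3 in Wnt4-deleted CD24 high cells, against 10.9, 10.8 and 10.9 in Wnt4-deleted CD24 low cells, with no overlap (-0.71, SE 0.14, adjusted p = 0.00539). In WT cells it had 10.2, 10.6 and 10.6 in CD24 high, against 10.9, 11.1 and 10.8 in CD24 low, also with no overlap, but was not called (-0.44, SE 0.14, adjusted p = 0.0585). Slc3a1, the heavy subunit rBAT of kidney and gut, had group means between 4.81 and 5.09 and was not called, nor was its light chain Slc7a9. Slc7a11, the cystine-glutamate exchanger xCT, had 5.25, 4.58 and 4.67 in Wnt4-deleted CD24 high cells, against 6.87, 4.96 and 5.63 in Wnt4-deleted CD24 low cells, where the groups overlapped (-0.99, SE 0.40, adjusted p = 0.126), and its WT change was -0.94 (adjusted p = 0.156), with no overlap.

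In the Slc1 family, Slc1a5 and Slc1a4 moved in opposite directions, although both encode exchangers of small neutral amino acids. Slc1a5 (ASCT2), a main entry for glutamine, was at 8.27, 7.59 and 7.49 in Wnt4-deleted CD24 high cells, against 9.55, 9.54 and 9.38 in Wnt4-deleted CD24 low cells, and at 7.68, 8.27 and 8.12 in WT CD24 high cells, against 9.90, 9.86 and 10.0 in WT CD24 low cells. It was lower in CD24 high cells by 1.71 and 1.90 (log2, SE 0.21 each, adjusted p = 1.86e-04 and 8.72e-05). Slc1a4 (ASCT1), which exchanges alanine, serine, cysteine and threonine, was at 7.21, 6.39 and 7.07 in Wnt4-deleted CD24 high cells, against 5.67, 4.85 and 5.04 in Wnt4-deleted CD24 low cells, and was higher by 1.70 in Wnt4-deleted and 1.43 in WT cells (SE 0.27 each, adjusted p = 0.00139 and 0.0042). With endothelial marker level as a covariate the Slc1a4 changes were 0.98 and 0.81 and were not called (adjusted p = 0.061 and 0.0799).

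The glutamate carriers of Slc1 also split. Slc1a1 (EAAT3), which takes up glutamate and cysteine, was higher in CD24 high cells by 2.01 and 2.17 (SE 0.59 each, adjusted p = 0.0381 and 0.0268). Its CD24 high values were 7.30, 7.38 and 6.70 in Wnt4-deleted and 5.70, 8.73 and 7.46 in WT cells, all above the CD24 low values of 4.81 to 5.68 and 4.81 to 5.45 of the same genotype. These calls were among the least stable, since the Wnt4-deleted call was lost when any 1 of 8 arrays (3, 4, 9, 12, 13, 14, 15 and 16) was left out, at adjusted p = 0.052 to 0.107, and the WT call when any 1 of 5 arrays (1, 9, 10, 13 and 14) was left out, at adjusted p = 0.0525 to 0.0861. Slc1a3 (GLAST), a glutamate carrier of glia, was at 4.92, 4.84 and 4.74 in Wnt4-deleted CD24 high cells, against 6.82, 5.61 and 5.96 in Wnt4-deleted CD24 low cells (-1.30, SE 0.26, adjusted p = 0.00587). In WT cells it was not called (-0.68, SE 0.26, adjusted p = 0.117), although it was with the runs as a block (adjusted p = 0.0381), and its arrays did not overlap there either, at 5.21, 4.99 and 5.07 in CD24 high and 6.14, 5.55 and 5.62 in CD24 low. Slc1a2, Slc1a6 and Slc1a7, known from brain and retina, had group means between 4.41 and 5.14 and changes of at most 0.12 in size.

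The sodium-coupled neutral amino acid carriers of the Slc38 family also held opposite changes. Slc38a1 (SNAT1), a glutamine carrier, was at 8.84, 9.16 and 8.72 in Wnt4-deleted CD24 high cells, against 7.45, 6.86 and 6.21 in Wnt4-deleted CD24 low cells, and at 9.03, 8.0 and 8.75 in WT CD24 high cells, against 6.73, 6.42 and 6.35 in WT CD24 low cells (2.06 and 2.09, SE 0.32 each, adjusted p = 9.67e-04 and 8.91e-04). A second Slc38a1 probeset went the same way, with 7.04, 6.56 and 6.6 in Wnt4-deleted CD24 high cells, against 5.25, 4.24 and 5.12 in Wnt4-deleted CD24 low cells. Slc38a2 (SNAT2), which carries small neutral amino acids and is known to be induced when amino acids run short, was at 10.5, 10.6 and 10.6 in Wnt4-deleted CD24 high cells, against 11.3, 11.7 and 11.4 in Wnt4-deleted CD24 low cells, and at 10.7, 10.8 and 10.6 in WT CD24 high cells, against 11.4, 11.9 and 11.8 in WT CD24 low cells. The differences were -0.89 and -0.99 (SE 0.15 each, adjusted p = 0.00201 and 0.00103), but with the endothelial level as a covariate the Wnt4-deleted change was -0.57 and not called (adjusted p = 0.0961).

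Slc38a6, a brain-enriched member of the family, was called higher in WT cells (1.2, SE 0.24, adjusted p = 0.00598) and had 0.75 in Wnt4-deleted cells (adjusted p = 0.0609), where its arrays also stood apart at 6.17, 6.92 and 6.81 in CD24 high and 5.68, 6.02 and 5.96 in CD24 low. The other 8 Slc38 genes were not called. They included Slc38a9, a lysosomal arginine sensor, with changes of 0.69 and 0.54 (adjusted p = 0.0704 and 0.167), and Slc38a7, a lysosomal glutamine carrier, with 0.06 in Wnt4-deleted and a smaller change in WT cells. Of the proton-coupled Slc36 carriers, Slc36a4 was lower in WT cells (-0.75, SE 0.15, adjusted p = 0.0056) and had -0.29 in Wnt4-deleted cells (adjusted p = 0.243), and the other 3 were not called.

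Slc43a1 (LAT3), a facilitative carrier of leucine and other large neutral amino acids, was lower in CD24 high cells like its family member Slc43a3. It was at 5.46, 5.30 and 5.49 in Wnt4-deleted CD24 high cells, against 7.44, 6.94 and 7.48 in Wnt4-deleted CD24 low cells, and at 5.74, 5.45 and 5.43 in WT CD24 high cells, against 8.19, 7.27 and 7.29 in WT CD24 low cells (-1.87 and -2.05, SE 0.24 each, adjusted p = 2.77e-04 and 1.49e-04). Slc43a2 (LAT4), which carries the same kind of amino acid, had 0.05 and 0.13 and was not called.

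In the Slc6 family of sodium- and chloride-coupled carriers, 3 of 18 were called in each genotype, the same 3 and all lower in CD24 high cells. This share, 16.7%, was near that of all genes (16.4% and 16.1%). Slc6a6, the taurine carrier, was at 8.47, 8.18 and 8.61 in Wnt4-deleted CD24 high cells, against 10.2, 10.4 and 9.90 in Wnt4-deleted CD24 low cells, and at 7.91, 8.10 and 8.65 in WT CD24 high cells, against 10.0, 10.7 and 10.4 in WT CD24 low cells (-1.76 and -2.15, SE 0.24 each, adjusted p = 4.23e-04 and 1.03e-04). Slc6a8, the creatine carrier, was lower by 0.85 and 1.03 (SE 0.19 each, adjusted p = 0.0109 and 0.00354), and its Wnt4-deleted call was lost with the endothelial level as a covariate (-0.81, adjusted p = 0.122). Slc6a9 (GlyT1), a glycine carrier, had -0.88 and -1.17 (SE 0.22 each, adjusted p = 0.0196 and 0.00411). Its Wnt4-deleted call was lost without array 4 or array 12 (adjusted p = 0.0626 and 0.0732) and with arrays 9 to 16 alone (-0.55, adjusted p = 0.121), array 3 having the highest value, 7.86, beside 7.14 and 6.89. The other 15, among them the carriers of noradrenaline (Slc6a2), dopamine (Slc6a3), serotonin (Slc6a4) and GABA (Slc6a11), had group means between 3.05 and 5.75 and changes of at most 0.53 in size.

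Some members of the Slc16 family, the monocarboxylate carriers, move lactate, pyruvate and ketone bodies with protons. Others carry other substrates, such as aromatic amino acids (Slc16a10) or creatine (Slc16a12). The family had 1 member higher and 4 lower of 13 in each genotype, the same 5 genes (38.5%, beside 16.4% and 16.1% of all genes), and 8 called in neither. Slc16a1 (MCT1) was at 6.68, 6.41 and 6.43 in Wnt4-deleted CD24 high cells, against 8.11, 7.27 and 7.54 in Wnt4-deleted CD24 low cells, and at 5.36, 5.76 and 6.56 in WT CD24 high cells, against 8.05, 7.87 and 8.08 in WT CD24 low cells. It had a log2 change of -1.14 in Wnt4-deleted (SE 0.28, adjusted p = 0.0169) and -2.10 in WT cells (SE 0.28, adjusted p = 3.82e-04). The Wnt4-deleted call was lost without array 12 or array 16 (adjusted p = 0.0554 and 0.0615) and without arrays 1 and 3 (-0.90, adjusted p = 0.0655). Slc16a3 (MCT4), an exporter of lactate from glycolytic cells, was lower by 0.98 and 0.99 (SE 0.24 each, adjusted p = 0.0152 and 0.0145). Its Wnt4-deleted call was lost without array 4 (adjusted p = 0.0575) and its WT call without array 1, 10 or 14 (adjusted p = 0.0583, 0.0518 and 0.0602).

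Slc16a13 and Slc16a11, MCT family members that lie side by side on chromosome 11, were lower by 1.1 and 1.24 and by 0.67 and 0.78 (SE 0.17 and 0.20, adjusted p = 0.00107 and 4.79e-04, and 0.0407 and 0.0205). With the endothelial level as a covariate the Wnt4-deleted change of Slc16a13 was -0.72 and not called (adjusted p = 0.0541). The Slc16a11 call was lost in Wnt4-deleted cells without array 4, 9, 10, 11, 12, 15 or 16 (adjusted p = 0.051 to 0.143) and in WT cells without array 9, 13 or 14 (adjusted p = 0.0641 to 0.0872). Slc16a5 (MCT6) was the exception of the family. It was at 6.61, 6.04 and 5.96 in Wnt4-deleted CD24 high cells, against 4.58, 4.62 and 4.73 in Wnt4-deleted CD24 low cells, and at 5.25, 5.32 and 5.33 in WT CD24 high cells, against 4.88, 4.65 and 4.74 in WT CD24 low cells. The log2 change was 1.56 in Wnt4-deleted (SE 0.16, adjusted p = 5.24e-05) and 0.54 in WT cells (SE 0.16, adjusted p = 0.0378), and the WT call was lost without any 1 of the 6 WT arrays (adjusted p = 0.0541 to 0.124). Of the 8 uncalled members, Slc16a7 (MCT2) and Slc16a10 (TAT1, an aromatic amino acid carrier) came closest, with -0.85 and -0.88 for Slc16a7 and -0.72 and -0.74 for Slc16a10 (adjusted p = 0.0613 to 0.0982).

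**Figure D4:**
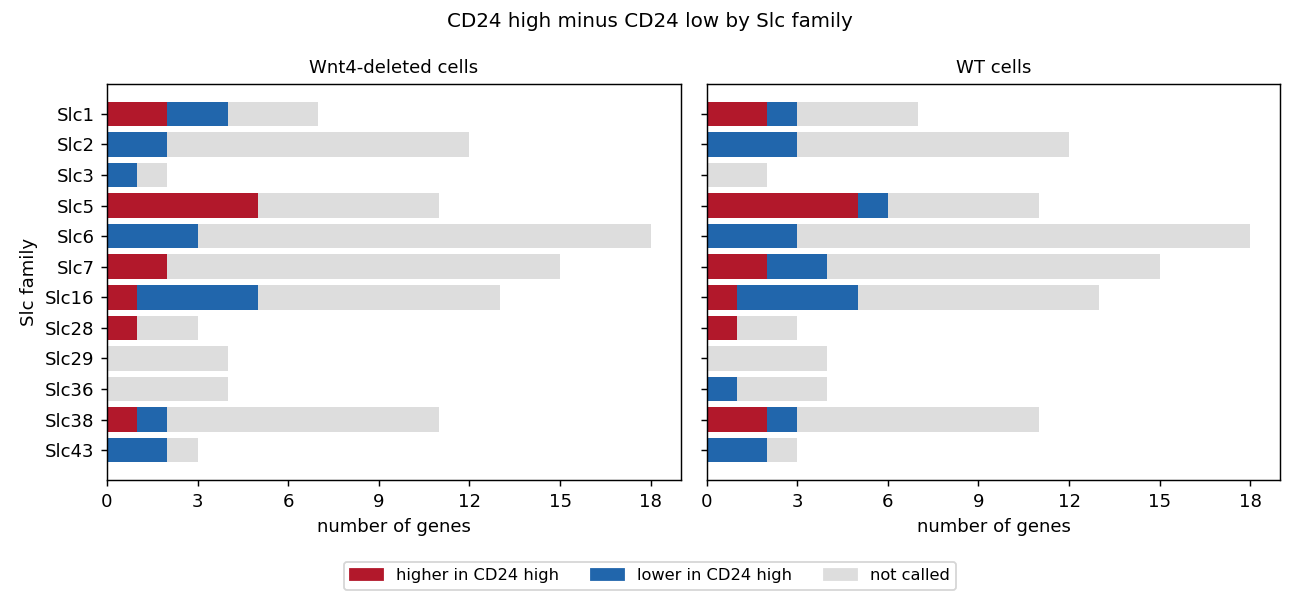
Number of genes in each Slc family (horizontal axis) that were higher in CD24 high cells, lower in CD24 high cells or not called, in Wnt4-deleted cells on the left and WT cells on the right. Slc5 has 5 genes higher in each genotype, Slc2 and Slc6 have none higher, and Slc29 has none called.

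The members were also grouped by substrate, beside the same 16.4% and 16.1% of all genes. The sugar and inositol carriers had 1 higher and 2 lower of 18 in Wnt4-deleted cells (16.7%) and 2 higher and 4 lower in WT cells (33.3%). The neutral amino acid carriers had 2 higher and 3 lower of 29 in Wnt4-deleted cells (17.2%), and 3 higher and 5 lower in WT cells (27.6%). The cationic amino acid carriers had 2 higher and 0 lower of 9 in Wnt4-deleted cells by limma (4 higher and 1 lower at an unadjusted p under 0.05), and 2 higher and 1 lower in WT cells. All 3 carriers of vitamins, iodide and choline (Slc5a5, Slc5a6 and Slc5a7) were higher in Wnt4-deleted cells and 2 of them in WT cells. Signal was low for many members. For 54 of the 103 the group means were under the median of all genes in all 4 groups, and 2 of these were called between the fractions, while 32 of the other 49 were. A gene high in 1 fraction joins the 49 through that fraction, so this contrast was partly fixed in advance. The same split was not counted over all genes, and nothing is concluded from it.

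Proteins that work with the carriers were described from a list of 10 measured genes. Of these, 1 was higher and 3 were lower in each genotype, where 16.4% (Wnt4-deleted) and 16.1% (WT) of all genes were called. Emb (embigin), a partner that brings monocarboxylate carriers to the surface, was lower in CD24 high cells by 4.89 in Wnt4-deleted and 5.67 in WT cells (log2, SE 0.33 each, adjusted p = 2.66e-06 and 1.05e-06). Bsg (basigin), the partner of MCT1 and MCT4, had 0.78 and 0.34 and was not called (adjusted p = 0.0898 and 0.528). Nptn (neuroplastin), of the same family, had -0.91 and -0.72 and was called lower in both. The ubiquitin ligases Nedd4l and Nedd4, known to take transporters off the membrane, went opposite ways, with Nedd4l higher by 1.61 and 2.01 and Nedd4 at -0.70 and -0.82, all called.

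Genes that use or sense the carried nutrients are given beside the 16.4% and 16.1% of all genes called. Of 9 genes of glutamine and glutathione metabolism, 5 were higher and 0 lower in Wnt4-deleted cells and 4 were higher and 0 lower in WT cells (limma, 55.6% and 44.4%), with a median log2 change of 0.92 and 0.34. They included Glul, which makes glutamine (1.70 and 1.62), Got1, a cytosolic transaminase (2.0 and 1.34), Gclc, a subunit of the first enzyme of glutathione synthesis (1.94 and 1.26), and Gsr, which reduces glutathione (1.57 and 1.28). Of 20 genes of the amino acid response driven by ATF4, 3 were higher and 3 lower in Wnt4-deleted cells and 2 higher and 3 lower in WT cells (30.0% and 25.0%). Stc2 (3.07 and 2.49) and Nupr1 (2.68 and 2.78) were higher, Cebpb (-1.48 and -1.35) and Cth (-1.36 and -1.68) were lower, and the classical targets Asns, Trib3 and Chac1 were not called.

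Of 15 nucleoside salvage genes, 1 was higher and 2 were lower in Wnt4-deleted cells, and 2 were higher and 3 lower in WT cells (20.0% and 33.3%). Nt5e, the surface enzyme CD73 that makes adenosine from AMP outside the cell, was lower in CD24 high cells (-2.92 and -3.14). Upp1, uridine phosphorylase, was lower too (-1.38 and -1.14), and Uck1, which phosphorylates uridine and cytidine, was higher (0.89 and 0.75). Of 14 glycolysis genes, 1 was higher and 2 lower in Wnt4-deleted cells, and 2 were higher and 1 lower in WT cells (21.4% each), with Aldoc, an aldolase, at 3.13 and 2.81 and Pfkp, a phosphofructokinase, at -1.18 and -1.25. Of 21 genes of amino acid sensing by mTORC1, 1 was higher and 2 lower in each (14.3%), among them Castor1, an arginine sensor (-1.1 and -0.72), and Rragd, a Rag GTPase (-1.58 and -1.93). Of 6 lactose and galactose genes, 2 were higher and 0 lower in Wnt4-deleted cells and 0 were called in WT cells (limma).

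Start regions were looked at for 2 motifs in RefSeq windows of 250 bases before to 50 bases after the start (GRCm38.p6), which were at hand for 77 of the 103 members and 21 of the 34 called ones. The E-box CACGTG, which reads the same on both strands, was in the windows of 13 members (16.9%), beside 8.09% of 27025 genes. The element TGATGNAA of ATF4 dimers, searched on both strands, was in those of 4 members (5.19%), beside 4.51% of genes. The motifs share no bases here. Of the called members, 3 held the E-box (Slc43a1 and Slc16a1, lower in CD24 high cells, and Slc5a1, higher) and 1 held the ATF4 element (Slc1a4, higher). These stretches are shown with the motif in capitals, which for Slc1a4 is the element read on the opposite strand. They are chr2:84840233-84840272 (plus strand), chr3:104638438-104638477 (plus), chr5:33104050-33104089 (plus) and chr11:20332710-20332759 (minus). The Slc43a1 stretch belongs to a start inside the gene, whose first base is at 84838855, and the others to the first base of their gene.
Slc43a1: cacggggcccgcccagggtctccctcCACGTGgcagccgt
Slc16a1: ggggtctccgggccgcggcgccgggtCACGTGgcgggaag
Slc5a1: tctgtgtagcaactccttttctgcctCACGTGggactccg
Slc1a4: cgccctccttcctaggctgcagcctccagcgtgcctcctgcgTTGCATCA
The 3 E-box genes did not change in 1 direction, and a match is a stretch of letters and no measured site.

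Several members are neighbours in the RefSeq gene order. Of 10 pairs that lie next to each other or with 1 protein-coding gene between them, 3 had both genes called. Neighbouring pairs were not counted over all genes, so this cannot be read as particular to the transporters. Slc16a11 and Slc16a13 were both lower in CD24 high cells, and so were Slc43a1 and Slc43a3, on chromosome 2 with 1 gene between them. Slc38a1 and Slc38a2, next to each other on chromosome 15, went opposite ways, with the values given above.

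Markers of other cells moved with the fractions. Of 12 endothelial markers, 8 were lower in CD24 high cells of Wnt4-deleted mice and 5 in those of WT mice, with median log2 changes of -2.43 and -2.07, and of 10 fibroblast markers 2 and 1 were lower. The mean of 6 Schwann cell markers was 6.43 to 6.78 on CD24 low arrays and 5.80 to 6.04 on CD24 high arrays. For 10 immune markers the mean was 4.73 to 6.06 on CD24 low arrays and 4.30 to 4.62 on CD24 high arrays. With the endothelial level as a covariate, 25 members were called in Wnt4-deleted and 30 in WT cells, and with the fibroblast level 28 and 29. These totals include newly called members, so they do not show how many calls were kept. In Wnt4-deleted cells the endothelial covariate lost the calls of Slc1a1, Slc1a4, Slc5a6, Slc5a8, Slc6a8, Slc16a11, Slc16a13 and Slc38a2. In WT cells it lost those of Slc1a4, Slc2a10, Slc5a2, Slc5a8, Slc16a5 and Slc16a11. The endothelial level was lower on every CD24 high array than on any CD24 low array, so that this covariate and the fraction cannot be fully told apart. Without arrays 1 and 3, the CD24 low arrays with skeletal muscle transcripts, the counts were 27 and 28, and on arrays 9 to 16 alone they were 31 and 32. Those last exclusions were chosen after seeing the data. Beyond these refits, the part of these cells in the differences of the carriers was not tested.

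Between the genotypes, 0 of the 103 transporters were called in either fraction (limma), where 0.00502% of all genes, that is 1 gene, were called in each. At an unadjusted p under 0.05 there were 2 members in CD24 low cells, where the share over all genes was 3.06%, and 4 in CD24 high cells, where it was 1.99%. The arrays of the genotypes did not overlap for 6 members in CD24 low cells (6.77% of all genes) and 8 in CD24 high cells (7.0% of all genes). The median standard error of the members was 0.17 (0.10 to 0.60). The largest difference was that of Slc16a5 in CD24 high cells, at 6.61, 6.04 and 5.96 in Wnt4-deleted and 5.25, 5.32 and 5.33 in WT cells. The arrays did not overlap, and the log2 change was 0.90 (SE 0.16, 95% interval 0.55 to 1.25, unadjusted p = 0.000134, adjusted p = 0.666 by limma). It was 1.36, 0.72 and 0.63 within the runs 1 to 4, 9 to 12 and 13 to 16. The mean of the myoepithelial markers was 7.22, 6.29 and 6.24 on these Wnt4-deleted arrays and 6.67, 6.47 and 6.27 on the WT arrays.

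The other members with the smallest p in CD24 high cells were Slc7a2, higher in Wnt4-deleted cells by 0.69 (95% interval 0.10 to 1.28), Slc5a6, with 0.80 (-0.01 to 1.61), Slc16a1, with 0.61 (-0.01 to 1.23), and Slc36a4, with 0.25. On the lower side were Slc28a1 (-0.31), Slc2a6 (-0.36), Slc3a2 (-0.29), Slc6a16 (-0.26) and Slc43a2 (-0.43). None passed adjustment (limma, adjusted p = 1.0 each). Slc7a2 was at 9.50, 10.5 and 10.5 in Wnt4-deleted and 9.46, 9.09 and 9.86 in WT CD24 high cells, so that the arrays overlapped, and within runs its difference was 0.03, 1.44 and 0.60.

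**Figure D5:**
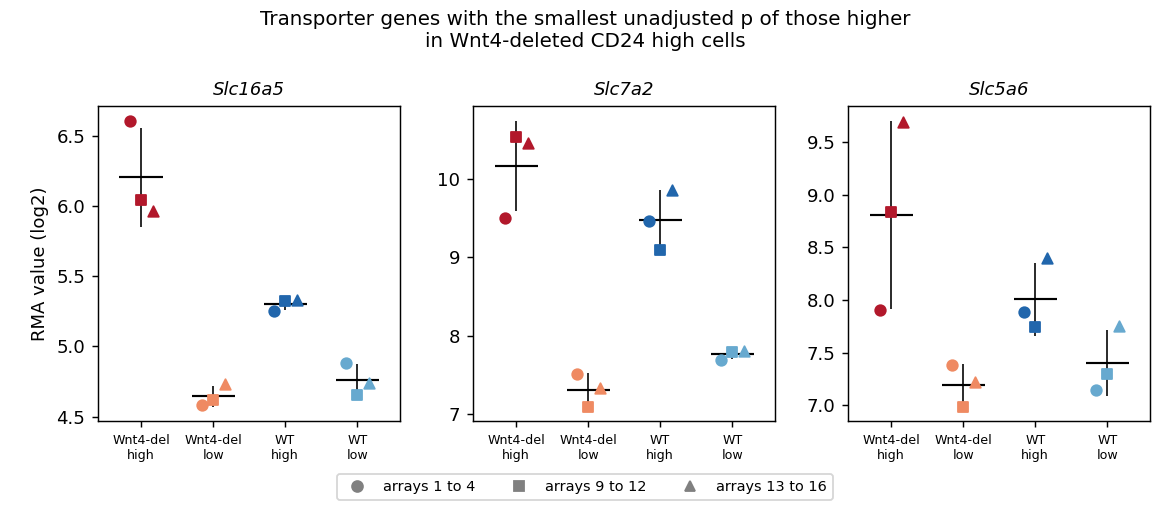
Values of Slc16a5, Slc7a2 and Slc5a6 on each array (RMA, log2), the 3 transporters with the smallest unadjusted p among those higher in Wnt4-deleted CD24 high cells. Groups run from Wnt4-deleted CD24 high and low to WT CD24 high and low, points are arrays shaped by run, horizontal bars are means and vertical lines are 1 SD (n = 3), and Slc16a5 alone has no overlap between the CD24 high groups.

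In CD24 low cells the members with the smallest p were Slc6a8 (creatine), with 8.85, 8.46 and 8.49 in Wnt4-deleted and 8.70, 9.15 and 9.27 in WT cells (-0.44, 95% interval -0.86 to -0.02), and Slc6a9 (glycine), with 7.86, 7.14 and 6.89 in Wnt4-deleted and 7.77, 7.88 and 7.73 in WT cells (-0.49, -0.98 to 0.00). Their arrays overlapped. Slc1a5 did not overlap, at 9.55, 9.54 and 9.38 in Wnt4-deleted and 9.90, 9.86 and 10.0 in WT cells (-0.44, -0.89 to 0.02), and neither did Slc29a2 (-0.30). Slc6a3 had -0.28. On the higher side, Slc43a3 had 9.78, 9.41 and 9.99 in Wnt4-deleted and 9.23, 9.30 and 9.40 in WT cells with no overlap (0.42, -0.04 to 0.88), followed by Slc1a3 (0.36), Slc28a2 (0.37), Slc7a13 (0.18) and Slc38a1 (0.34). All had an adjusted p of 1.0 (limma).

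Over both fractions, where 6 Wnt4-deleted arrays were set against 6 WT arrays, 0 members were called (limma, 0.00502% of all genes) and 5 had an unadjusted p under 0.05 (3.58% of all genes). These were Slc16a5 (0.39, SE 0.11, adjusted p = 0.994), Slc28a1 (-0.21), Slc6a8 (-0.35), Slc1a5 (-0.34) and Slc6a9 (-0.35). Slc43a2 had -0.39, and on the higher side Slc43a3 had 0.31, Slc38a1 0.33, Slc7a12 0.13 and Slc16a4 0.18, none of them called. These differences use the same arrays as those of the single fractions.

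Whether the genotype difference itself differed between the fractions was tested as an interaction. By limma 0 members and 0% of all genes were called, and 3 members had an unadjusted p under 0.05 (1.37% of all genes), namely Slc16a5, Slc7a2 and Slc16a1. The fraction difference was larger in Wnt4-deleted cells for Slc16a5 (1.56, against 0.54 in WT cells) and Slc7a2 (2.86, against 1.71 in WT cells), and in WT cells for Slc16a1 (-1.14 in Wnt4-deleted and -2.10 in WT cells). None passed adjustment (limma, adjusted p = 1.0 each). The next smallest p belonged, on the negative side, to Slc36a4 (-0.46) and Slc2a8, the intracellular glucose carrier GLUT8 (-0.43), and on the positive side to Slc2a6 (0.45), Slc1a3 (0.62), Slc7a13 (0.30), Slc2a5, the fructose carrier GLUT5 (0.23), and Slc3a2 (0.27).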

How the data were processed

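Total RNA of sorted mouse mammary cells was amplified, labelled with biotin and hybridised to 12 Affymetrix arrays, 1 per sample. The deposited table holds log2 signals that the authors obtained with RMA (Expression Console 1.1.2800), a method that subtracts background, equalises the distributions of arrays and combines the probes of a set. Base 2 was inferred from RMA and the range of values. The precision is limited by the number of arrays. Values came without detection calls, and RMA understates differences of dim genes.

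Of 35556 probesets, 21789 with a single symbol were kept, while 1621 with several symbols and 12146 that the gene annotation at hand does not list were set aside, and 999 genes had more than 1 probeset. Linear models were fitted with limma 3.58.1 (R 4.3.3), giving each of the groups its own mean and sharing the variance across the 12 arrays. This left 8 residual degrees of freedom, or 11.05 with the empirical Bayes prior. Tests were two-sided, with Benjamini-Hochberg adjustment over 19938 genes and a threshold of 0.05. The model was tested on simulated data. The labels tie no sample to an experiment, and the spread behind each p-value is that of these samples, which may be technical. Groups came from sample titles.

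The members, the pathway and marker lists and the tests were chosen with earlier results of these data known. With statistics were named, in each comparison of fractions, the 12 highest and 12 lowest called members, in each comparison of genotypes the 5 higher and 5 lower members with the smallest unadjusted p, the leading member of each family and substrate group, members whose probesets disagreed in sign (none was called), the Slc3 partners, and up to 4 called genes of each pathway list. A few uncalled members were named with their levels. Alternatives were to drop genes below the 40th percentile, to average probesets, to centre arrays on their median, to apply quantile normalisation again, to moderate variances robustly along intensity, array weights, runs of title numbers as a block, marker levels as covariates, a fit on the compared groups, stricter thresholds and fits with 1 array dropped at a time. Leaving out arrays 1 and 3, or 1 to 4, was chosen after seeing the data.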

Additional observations from a re-analysis of the deposited data

Results flagged for a closer look

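For 3 transporters the difference between Wnt4-deleted and WT cells was itself different in the CD24 low and the CD24 high fraction, at an unadjusted p under 0.05. This difference, CD24 low minus CD24 high, was -1.02 for Slc16a5 (SE 0.22, unadjusted p = 0.000821), -1.15 for Slc7a2 (SE 0.38, unadjusted p = 0.0111) and -0.96 for Slc16a1 (SE 0.40, unadjusted p = 0.0331). None passed adjustment over all genes (limma, adjusted p = 1.0 each), and 273 of all genes (1.37%) had such a p. Within the runs 1 to 4, 9 to 12 and 13 to 16 the value was -1.66, -0.75 and -0.64 for Slc16a5, -0.22, -2.15 and -1.08 for Slc7a2 and -1.25, -1.24 and -0.40 for Slc16a1. The sign was the same in each run, but the same arrays gave the p by which these 3 were picked. For Slc7a2 the deleted cells lay above WT in CD24 high (0.69) and below in CD24 low cells (-0.46). For Slc16a1 it was 0.61 in CD24 high and -0.36 in CD24 low, and for Slc16a5 it was 0.90 and -0.11.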

How the results depend on the processing

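The number of transporters called between the fractions lay between 20 and 34 in Wnt4-deleted cells (27 as reported) and between 22 and 40 in WT cells (31 as reported) over all alternatives, the lowest at an adjusted p under 0.01 and the highest with array weights. Leaving out each array in turn gave 25 to 30 and 24 to 34. Between the genotypes 0 members were called by limma under every alternative run, leaving out each array included (0 to 0). The fit on the compared groups alone gives no separate value over both fractions or for the difference of effects, and the filter at the 40th percentile left 47 members. No called change between fractions turned its sign. Of the 27 calls in Wnt4-deleted cells 16 were kept in every refit, and of the 31 in WT cells 22. Slc16a11 had -0.12 and -0.30 with the endothelial level as a covariate. Slc5a2 had adjusted p = 0.0552 to 0.12 in WT cells without 1 WT array. With the endothelial level as a covariate Slc7a5 had -2.49 in Wnt4-deleted cells (adjusted p = 0.00307) and was called. Slc28a2 in CD24 low cells, 0.37 as reported, lay between -0.016 without array 11 (adjusted p = 0.996) and 0.69 without array 3 (adjusted p = 0.446), and the cause was not tested. The groups share no replicate numbers, so that no label pairs the samples. With the runs of title numbers as a block instead, 28 and 34 members were called. Of the 34 members called in either genotype as reported, Slc1a3 in WT cells alone changed its call. The members called in neither genotype were not followed gene by gene in this refit.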
